A study of Mus musculus with 6 samples.

Results

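Coenzyme Q synthesis genes are the nuclear genes whose proteins build coenzyme Q inside mitochondria. The set held 10 genes, Pdss1, Pdss2, Coq2, Coq3, Coq4, Coq5, Coq6, Coq7, Coq8a and Coq9, and every probe set whose platform annotation gave 1 of them as its only gene was taken. That gave 15 probe sets for 9 genes, out of 45037 probe sets for 18193 genes. No probe set was assigned to Pdss1 alone, so Pdss1 was not analysed here. The set was chosen by pathway role with the differences between ICD and wild type (WT) arrays in view, because Coq8a had one of the lowest. Every value of that contrast is therefore given for the members as a description, with no test.

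The arrays measured whole kidney RNA of 6 adult male mice aged 10 weeks, 1 Affymetrix array per animal. In the ICD group (n = 3), heterozygous mice expressed the intracellular domain of megalin, the endocytic receptor of the proximal tubule, which the label of 1 mouse calls soluble. The WT group (n = 3) held wild type littermates. The sources used here do not give the promoter or the cells that drive the domain.

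Coenzyme Q is a lipid that carries electrons in the inner mitochondrial membrane from the dehydrogenases to complex III. Its synthesis joins an isoprenoid tail, made from mevalonate pathway products, to a benzoate ring, and a membrane-bound assembly of COQ proteins then hydroxylates, decarboxylates and methylates the ring. The kidney cortex is rich in mitochondria, and inherited defects of this pathway in people and mice can damage the glomerular filter and the tubules.

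Coq8a, an atypical kinase-like protein that the synthesis complex needs, was the member with the largest difference. Its bright probe set was lower on all 3 ICD arrays than on all 3 WT arrays, by 0.64 on the log2 scale. The other 8 measured genes differed by -0.22 to 0.043 at their brightest probe sets, and the groups overlapped for each of them. The median difference of the 9 genes was -0.025, against -0.012 over all 18193 genes. At the brightest probe sets 6 genes were lower and 3 higher in ICD kidneys, and 56.1% of all genes were lower. Over the 15 probe sets 11 were lower, against 52.8% of all probe sets. Values are RMA signals on a log2 scale, so a difference of 1 is a doubling, and levels of different probe sets are not set against each other.

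**Figure D1:**
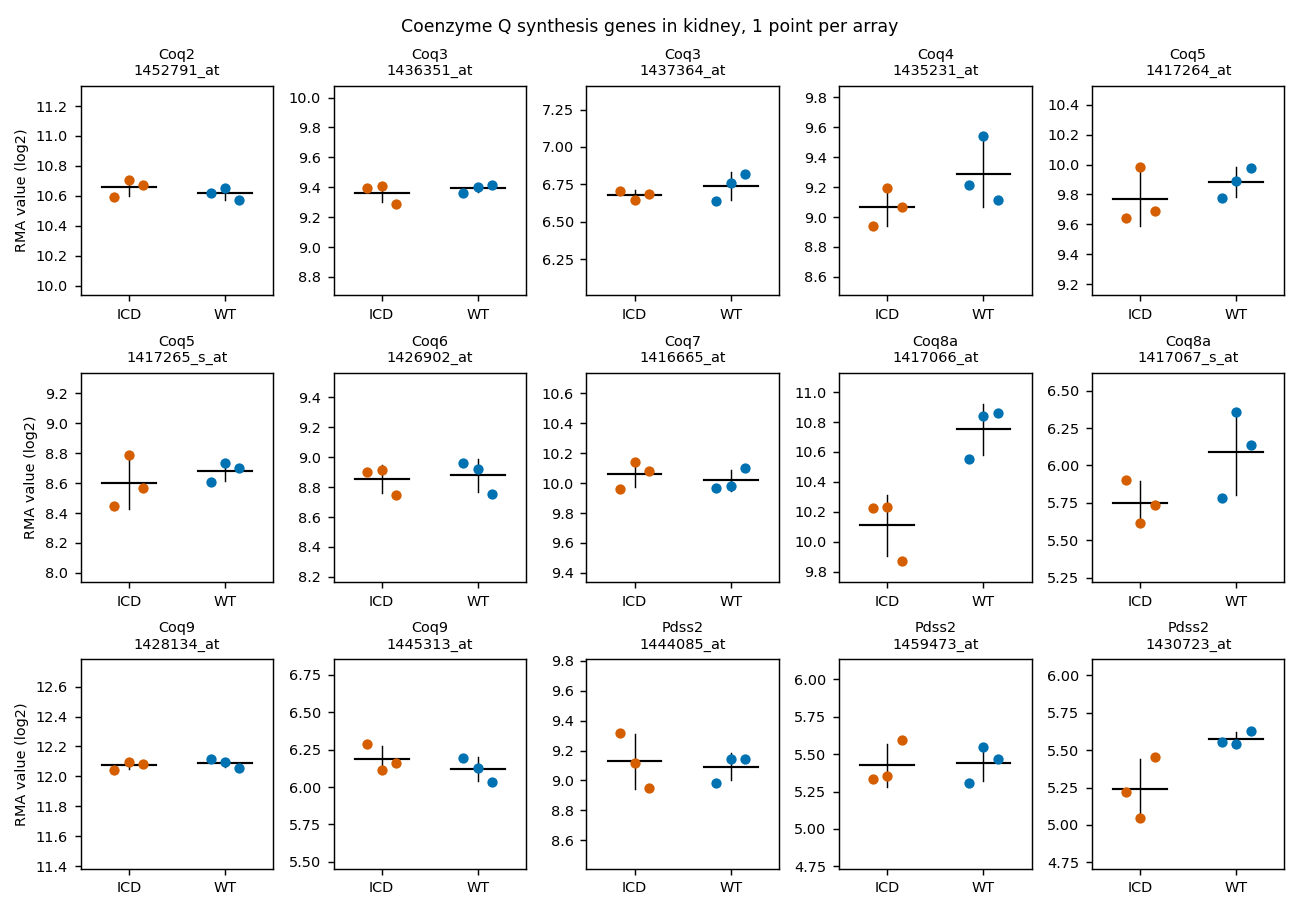
RMA value (log2, vertical axis, the same span of 1.4 in every panel) of the 15 probe sets of coenzyme Q synthesis genes, with 1 point per array, ICD left of WT. The horizontal line is the group mean and the vertical line 1 SD to either side (n = 3). Coq8a 1417066_at and Pdss2 1430723_at are the panels in which the groups do not overlap.

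The limma fit over all 45037 probe sets called 0 of them (0%) at an adjusted p under 0.05. At an unadjusted p under 0.05 it had 2641 probe sets, which is 5.86%. Groups without overlap were found for 2 of the 15 member probe sets, against 10.5% of all probe sets. Both were lower in ICD kidneys, a direction in which 5.05% of all probe sets did not overlap. Since the members were chosen with this contrast in view, nothing is read from these counts. The smallest p that an exact permutation of 3 against 3 arrays can give is 0.1.

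The arrays had medians of 6.62 to 6.66, and any pair of them correlated at 0.9949 to 0.9966. Actb probes at the 3' end exceeded those at the 5' end by 0.87 to 0.96 on ICD arrays and by 0.82 to 1.00 on WT arrays (log2), and Gapdh probes by 0.12 to 0.17 on ICD arrays and by 0.15 to 0.18 on WT arrays. The array labelled WT 3 stood apart. Its score over 10 proximal tubule markers, their mean deviation from the average of the 6 arrays, was -0.64, whereas scores were 0.077 to 0.22 on ICD arrays and 0.053 to 0.21 on the other WT arrays. Most of that came from Slc5a12, a lactate transporter, at 4.12 on the array labelled WT 3 against 9.27 to 10.47 on the other 5 arrays, and some from Slc5a2, a glucose transporter, at 10.40 against 11.29 to 11.96. Slc34a1 (13.92) and Miox (13.88) were also at their lowest on that array, by less. The markers did not all move the same way there. Kap (15.11) and Cyp2e1 (14.41) were at their highest on that array, and Slc22a6, Cubn, Slc13a3 and Aqp1 were close to the other arrays. At Lrp2, which encodes megalin, probe set 1427133_s_at read 12.25, 12.37 and 12.26 on ICD arrays and 13.01, 12.97 and 12.13 on WT arrays, so that the array labelled WT 3 resembled the ICD arrays there. The difference at 1427133_s_at was -0.41, and -0.70 without the array labelled WT 3. The groups overlapped at every Lrp2 probe set. The other bright one, 1452320_at, differed by 0.0079, and by -0.017 without the array labelled WT 3. The less bright 1445901_at differed by 0.12, and by -0.011 without that array. Many differences are therefore also given without the array labelled WT 3. Where no such value is given, the difference was not necessarily stable. Among the brightest probe sets of the members without that array, Coq2 differed by 0.019, Coq3 by -0.020, Coq5 by -0.063, Coq6 by -0.088, Coq7 by 0.085, Coq9 by -0.031 and Pdss2 by 0.064, each with the sign it had with all arrays. Of the dim or less bright probe sets, those of Coq3 and Coq9 then differed by -0.020 and 0.024, and Pdss2 1459473_at by 0.00069, of turned sign.

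Coq8a encodes the protein also known as ADCK3, a mitochondrial member of the ancient UbiB family, and loss of human COQ8A causes cerebellar ataxia. Its promoter windows are shown because this member carries the difference. RefSeq lists more than 1 start site for it in GRCm38.p6, and which sites the probe sets read was not analysed here. Each window runs from 250 bases before to 50 bases after a start site on the minus strand of chromosome 1, at chr1:180195971-180196270 (upstream site) and chr1:180193436-180193735 (downstream site), printed 5' to 3'. Capitals mark matches to a GC box (GGGCGG) or to CCAAT on either strand.
Upstream start site: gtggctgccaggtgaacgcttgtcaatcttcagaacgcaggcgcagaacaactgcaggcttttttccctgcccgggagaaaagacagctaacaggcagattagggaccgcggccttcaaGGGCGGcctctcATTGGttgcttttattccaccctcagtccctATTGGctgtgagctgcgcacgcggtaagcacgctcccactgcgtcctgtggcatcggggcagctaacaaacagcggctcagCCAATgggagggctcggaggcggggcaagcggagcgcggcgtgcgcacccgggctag
Downstream start site: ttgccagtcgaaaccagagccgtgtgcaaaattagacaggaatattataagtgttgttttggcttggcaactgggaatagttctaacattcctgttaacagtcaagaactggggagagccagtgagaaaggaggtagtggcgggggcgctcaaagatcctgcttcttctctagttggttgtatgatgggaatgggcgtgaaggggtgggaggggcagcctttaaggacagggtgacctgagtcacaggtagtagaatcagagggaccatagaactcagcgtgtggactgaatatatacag

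The upstream window of Coq8a was the richer in G and C, at 61.7%, with 22 CpG dinucleotides, whereas the downstream window had 48.7% and 6 CpG dinucleotides. Over all 32851 RefSeq promoter windows of this length the medians were 52.7% and 7 CpG dinucleotides. The upstream window held 1 GC box at -131 to -126 and 3 CCAAT matches, at -119 to -115, -88 to -84 and -7 to -3, counted from the start site. A GC box was found in 35.7% of all windows and a CCAAT match in 37.4%, while 3 or more CCAAT matches were found in 3.37%. The downstream window held none of the 6 motifs searched. The other 4 were an ETS core (CCGGAAG), an estrogen-related receptor element (TCAAGGTCA), an E-box (CACGTG) and a TATA box (TATAAA), searched on both strands, and neither Coq8a window held them. Among the 11 windows of 9 member genes (Coq5 had none in the table) the ETS core was in 3, against 8.86% of all windows, CCAAT in 3 and the GC box in 5. Coq4 had the only E-box of the members, at -56 to -51, and 7.15% of all windows held one. None of the 11 windows held the receptor site (0.423% of all windows) or the TATA box (13.6%). Matches of letters are a description and show no binding.

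At the bright Coq8a probe set 1417066_at the ICD arrays read 10.22, 10.23 and 9.87, and the WT arrays 10.56, 10.84 and 10.86. The groups were separated by 0.32 between the highest ICD and the lowest WT array. The means were 10.11 ± 0.21 in ICD and 10.75 ± 0.17 in WT kidneys (SD, n = 3 each), a difference of -0.64 ± 0.12 (SE) with a 95% interval of -0.92 to -0.36. On the linear scale ICD kidneys had 0.64 of the WT signal (interval 0.527 to 0.778). In bulk tissue, fewer cells of a type and less RNA per cell cannot be told apart.

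The other Coq8a probe set, 1417067_s_at, is dim, below the median of all probe sets, and its suffix marks probes shared between transcripts. It read 5.90, 5.61 and 5.73 on ICD arrays and 5.79, 6.36 and 6.14 on WT arrays. Here ICD 1 lay above WT 1, so the groups overlapped, and the difference was -0.34 ± 0.14 (SE), in the same direction. Leaving out any 1 array gave differences of -0.74 to -0.52 at the bright probe set. The value closest to 0 came without ICD 3, the lowest array, and the value without the array labelled WT 3 was -0.59. At the dim probe set the range was -0.50 without WT 1 to -0.21 without WT 2, with -0.32 without the array labelled WT 3. By difference, 1417066_at was number 20 from the lowest of 45037 probe sets and 1417067_s_at number 180. A dim probe set of another member, Pdss2 1430723_at, ranked close to the latter, at number 198.

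Coq8a was also lower relative to each of the other members within the same array. The log2 ratio of its bright probe set to that of another member was lower on all ICD arrays than on all WT arrays for 8 of 8 members. Differences of this ratio ran from -0.42 against Coq4 to -0.69 against Coq7. The narrowest gap was with Coq4, where the centred ratio was 0.034, -0.22 and -0.45 on ICD arrays and 0.091, 0.047 and 0.49 on WT arrays. These ratios use the same Coq8a values and add no independent measurement.

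**Figure D2:**
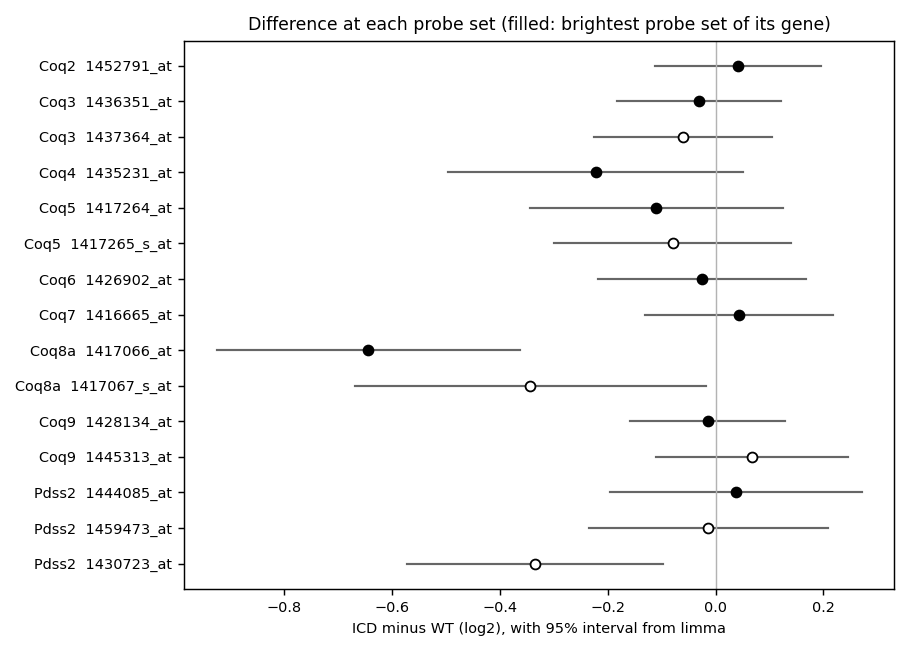
Difference ICD minus WT (log2, horizontal axis) of each of the 15 probe sets with its 95% interval from the limma fit, with filled points for the brightest probe set of a gene. Coq8a 1417066_at lies at -0.64 and its dim probe set at -0.34, whereas the brightest probe sets of the other genes lie between -0.22 and 0.043.

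The tail of coenzyme Q is made by a prenyl transferase of PDSS1 and PDSS2 subunits, and a Pdss2 mutation underlies the kidney disease of the kd mouse. Pdss2 had 3 probe sets, which differed in pattern. The bright 1444085_at read 9.32, 9.12 and 8.95 on ICD arrays and 8.99, 9.14 and 9.14 on WT arrays, with a difference of 0.038 ± 0.10 (SE). The WT values lay within the ICD range, and the sign turned without ICD 1 (-0.056) and without WT 1 (-0.014). The dim 1430723_at read 5.22, 5.05 and 5.45 on ICD arrays and 5.55, 5.54 and 5.63 on WT arrays, with no overlap and a difference of -0.33 ± 0.10. Its difference ran from -0.44 without ICD 3 to -0.24 without ICD 2, with -0.31 without the array labelled WT 3. The remaining dim probe set, 1459473_at, differed by -0.013 ± 0.097. Over the 6 arrays the bright probe set ran against the dim ones, with correlations of -0.38 to 1430723_at and -0.33 to 1459473_at (n = 6, a description). The low readings at 1430723_at thus had no counterpart at the bright probe set of the same gene.

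Coq2, the membrane enzyme that attaches the tail to the ring, was among the steadiest members. It read 10.59, 10.71 and 10.67 on ICD arrays and 10.62, 10.65 and 10.57 on WT arrays. The groups overlapped, and the difference of 0.041 ± 0.067 (SE) had an interval of -0.11 to 0.20.

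The ring is modified by hydroxylases and methyltransferases. Coq6, a flavin enzyme that hydroxylates the ring, read 8.90, 8.92 and 8.74 on ICD arrays and 8.96, 8.92 and 8.75 on WT arrays. The third array of each group was the lowest, and the difference was -0.025 ± 0.084 (SE). Coq7, the di-iron hydroxylase of the next-to-last step, read 9.96, 10.14 and 10.08 on ICD arrays and 9.97, 9.98 and 10.10 on WT arrays. Its difference was 0.043 ± 0.076, with overlapping groups.

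Coq3, the enzyme that adds the O-methyl groups, read 9.39, 9.41 and 9.29 on ICD arrays and 9.37, 9.40 and 9.42 on WT arrays. Only ICD 3 lay below the WT range, and the difference was -0.031 ± 0.067 (SE). The less bright Coq3 probe set, 1437364_at, differed by -0.061 ± 0.072. Coq5, the enzyme that adds the C-methyl group, read 9.64, 9.98 and 9.69 on ICD arrays and 9.78, 9.89 and 9.98 on WT arrays. ICD 2 was about level with the highest WT array and the other ICD arrays were below all WT arrays, with a difference of -0.11 ± 0.10. The other Coq5 probe set, 1417265_s_at, followed it closely, with r = 0.94 over the 6 arrays and a difference of -0.080 ± 0.096. The Coq5 differences were -0.21 and -0.17 without ICD 2, -0.045 and -0.0023 without ICD 1, and -0.063 and -0.069 without the array labelled WT 3, so their size rested on single arrays.

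Coq4 and Coq9 are subunits of the assembly. Coq4, which the assembly needs to hold together, had the second lowest difference. It read 8.94, 9.20 and 9.07 on ICD arrays and 9.21, 9.54 and 9.12 on WT arrays. ICD 2 lay above the array labelled WT 3, so the groups overlapped, and the means were 9.07 ± 0.13 in ICD and 9.29 ± 0.22 in WT kidneys (SD, n = 3 each). The difference of -0.22 ± 0.12 (SE) was -0.31 without the array labelled WT 3, -0.16 without ICD 1 and -0.096 without WT 2, the highest array. Coq9, the lipid-binding partner of COQ7, had the smallest spread of the members. Its probe set 1428134_at read 12.05, 12.10 and 12.08 on ICD arrays and 12.11, 12.10 and 12.06 on WT arrays, a range of 0.068 over the 6 arrays. The difference was -0.015 ± 0.063, with an interval of -0.16 to 0.13, and the dim 1445313_at differed by 0.067 ± 0.078.

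**Figure D3:**
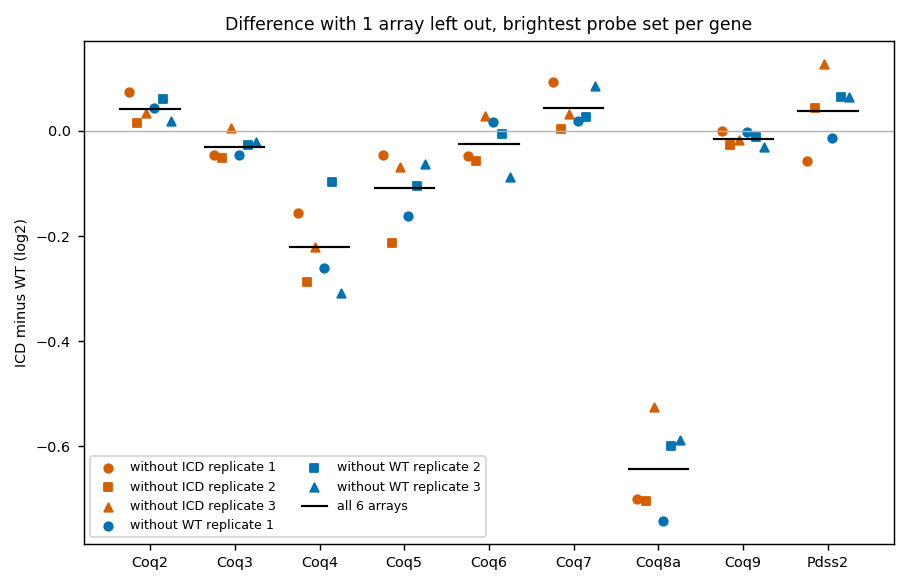
Difference ICD minus WT (log2, vertical axis) at the brightest probe set of each of 9 genes with all 6 arrays (line) and with 1 array left out (points). Coq8a stays between -0.74 and -0.52, Coq4 between -0.31 and -0.096, and the sign of Coq3, Coq6 and Pdss2 turns without some array.

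Members varied differently from animal to animal within a group. Among the probe sets at or above the median brightness, the pooled SD within groups of Coq9 1428134_at (0.028) lay at percentile 2.08, and those of Coq3 (0.049) and Coq2 (0.051) at percentiles 11.4 and 12.9. Coq8a (0.19) and Coq4 (0.18) lay at percentiles 88.7 and 87.5. This spread does not use the group difference. The 2 members with the lowest differences were thus also those that varied most within groups at their brightest probe sets.

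Across the 36 pairs of the 9 genes, deviations from the group means correlated with a median r of 0.16, and 26 pairs were above 0. The highest was Coq3 with Coq8a (0.95), followed by Coq2 with Coq9 (0.88) and Coq8a with Pdss2 (0.86), and the lowest was Coq9 with Pdss2 (-0.65). Each rests on 6 arrays that share labelling and normalization, and with group means removed few degrees of freedom remain. Among 19654 bright probe sets with 1 gene, 599 had a correlation with Coq8a above 0.9 on this measure. The closest were Qk (0.999), Emb (0.997), Slc45a4 (0.997), Mrpl39 (0.996) and Tarsl2 (0.994). Over the 6 arrays with group means kept, 144 probe sets lay above 0.9, and the closest genes were Shisa5 (0.988), Wbp11 (0.987), Urm1 (0.984), Znhit2 (0.982) and Laptm4b (0.981). Their differences between ICD and WT arrays were -0.049, -0.16, -0.12, -0.18 and -0.24, each smaller in size than that of Coq8a. These genes were picked for likeness to Coq8a with group means kept. Neither their direction nor their smaller size therefore adds a separate result. No member was among these 10 genes.

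Beside the members stood 53 genes in 5 lists, of which 49 were measured. The lists covered partners, supply and users of coenzyme Q, and also mitochondrial mass and biogenesis outside the pathway. The fit over all probe sets called 0 of them in either direction, 25 were higher and 24 lower in ICD kidneys, and the groups did not overlap for 5, against 9.1% of all genes. Acat2, Fdxr and Fdx2 were among those not analysed here.

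Of 12 partners and relatives 10 were measured, 4 higher and 6 lower, with a median of -0.00090, and -0.0086 without the array labelled WT 3. Coq8b, the paralog of Coq8a that is known for its role in podocytes, read 8.67, 8.69 and 8.61 on ICD arrays and 8.64, 8.69 and 8.62 on WT arrays. The readings nearly coincided, and the difference was 0.0098 ± 0.065 (SE) with an interval of -0.14 to 0.16, and -0.0043 without the array labelled WT 3. Coq10a and Coq10b, lipid-binding proteins that help coenzyme Q work in respiration, differed by -0.11 ± 0.075 and 0.054 ± 0.11, and by -0.047 and -0.013 without the array labelled WT 3. The highest of the list was Adck1 (0.12 ± 0.075), another UbiB family gene. The lowest was Hpdl, an enzyme of ring precursor synthesis in human cells, which read 4.99, 4.97 and 5.13 on ICD arrays and 5.28, 5.24 and 5.36 on WT arrays, with no overlap, at a dim probe set.

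Of 11 genes of mevalonate and prenyl supply 9 were measured, 3 higher and 6 lower. Their median was -0.097, and -0.073 without the array labelled WT 3. The lowest was Hmgcs1, the enzyme that makes HMG-CoA, which read 13.60, 12.70 and 13.44 on ICD arrays and 13.63, 13.39 and 13.89 on WT arrays. ICD 2 was the lowest array at each of the 5 Hmgcs1 probe sets, which differed by -0.59 to -0.30. At the brightest the difference was -0.39 ± 0.23 (SE), and -0.26 without the array labelled WT 3. The highest was Idi1, the isopentenyl diphosphate isomerase, at 0.10 ± 0.13.

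Genes of the enzymes that pass electrons to coenzyme Q and genes that stand for mitochondrial mass had median differences close to 0. Of 11 such enzyme genes 7 were higher and 4 lower (median 0.035, and 0.012 without the array labelled WT 3), from Dhodh, an enzyme of pyrimidine synthesis, at -0.13 ± 0.076 (SE) to Prodh2, a hydroxyproline dehydrogenase, at 0.16 ± 0.14 (0.066 without that array). Of 9 mitochondrial mass genes 4 were higher and 5 lower (median -0.0029), from Cycs, which encodes cytochrome c, at -0.061 ± 0.090 to Vdac2, an outer membrane channel, at 0.034 ± 0.066. Of 10 regulators of mitochondrial biogenesis 7 were higher and 3 lower (median 0.059, and 0.058 without the array labelled WT 3). The list's scores did not overlap, at 0.047 to 0.099 on ICD arrays and -0.14 to -0.0040 on WT arrays. Ppara, Ppargc1a and Nrf1 had the largest differences, and the rest of the list lay between -0.043 and 0.074. Ppargc1a, a coactivator of mitochondrial genes, read 10.80, 11.08 and 10.82 on ICD arrays and 10.78, 10.40 and 10.28 on WT arrays. Its difference was 0.41 ± 0.14, and 0.31 without the array labelled WT 3. The other 4 Ppargc1a probe sets differed by -0.16 to -0.0096. Nrf1, a transcription factor for respiratory chain genes, read 7.40, 7.38 and 7.30 on ICD arrays and 7.20, 7.06 and 7.20 on WT arrays, a difference of 0.21 ± 0.072, while its other 3 probe sets differed by -0.030 to 0.14. Neither gene's groups overlapped at these brightest probe sets, and neither passed the test over all probe sets. The highest was Ppara, the fatty acid-sensing nuclear receptor, at 0.50 ± 0.17 and 0.34 without the array labelled WT 3. It read 10.63, 11.11 and 10.89 on ICD arrays and 10.68, 10.41 and 10.05 on WT arrays, so the groups overlapped. Its other probe sets differed by 0.26 and 0.36, also with overlap. The lowest was Esrra, an orphan nuclear receptor, at -0.043 ± 0.068 and -0.066 without the array labelled WT 3.

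**Figure D4:**
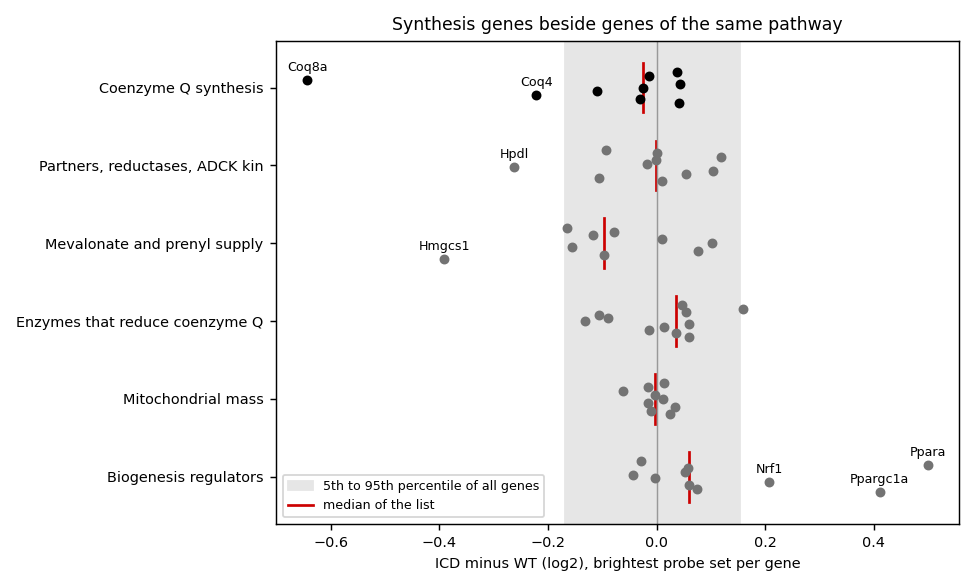
Difference ICD minus WT (log2, horizontal axis) of each measured gene at its brightest probe set, by list, with the list's median as a red line and the 5th to 95th percentile of all 18193 genes (-0.17 to 0.15) as a grey band. Coq8a at -0.64 and Coq4 at -0.22 lie outside the band on the low side, and the other 7 synthesis genes inside it.

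Marker lists of 14 cell or tissue types were scored, and some differed between the groups. Podocyte markers were higher in ICD kidneys for 4 of 4, with list scores of 0.13 to 0.26 on ICD arrays and -0.34 to -0.023 on WT arrays. The median difference of these 4 genes was 0.38, and 0.29 without the array labelled WT 3. Thick ascending limb markers were lower for 4 of 5 (scores -0.13 to -0.0023 in ICD and -0.015 to 0.12 in WT), and principal cell markers for 4 of 5 (-0.14 to 0.035 in ICD and 0.014 to 0.15 in WT). Proximal tubule markers were higher for 6 of 10 (0.077 to 0.22 in ICD and -0.64 to 0.21 in WT, the low end being the array with the low Slc5a12 reading). Their median difference was 0.042, and 0.0073 without the array labelled WT 3. The median of the principal cell markers was -0.21, and -0.13 without that array. Brown fat markers, from a tissue rich in coenzyme Q that can adhere to the kidney, were higher for 2 of 4. Their scores were 0.13, -0.047 and -0.30 on ICD arrays and -0.31, 0.50 and 0.025 on WT arrays, and Ucp1 read 8.82, 9.12 and 8.28 on ICD arrays and 8.33, 9.86 and 9.10 on WT arrays. Skeletal muscle markers were higher for 2 of 5 (-0.040 to 0.030 in ICD and -0.056 to 0.12 in WT), with a median of -0.0096, and 0.070 without the array labelled WT 3. Endothelial markers were higher for 5 of 5 and white fat markers for 3 of 3, with overlapping scores (-0.049 to 0.18 in ICD and -0.33 to 0.26 in WT, and -0.11 to 0.30 in ICD and -0.47 to 0.034 in WT). The endothelial count rested on the array labelled WT 3: without it Pecam1, Kdr and Tek differed by -0.062, -0.13 and -0.12, and the list's median was -0.062 in place of 0.093. Distal tubule (2 of 4 higher), intercalated cell (3 of 5) and immune markers (3 of 5) had overlapping scores too. Their medians were -0.0035, 0.018 and 0.14, and 0.015, 0.034 and 0.044 without the array labelled WT 3. Urothelial (1 of 5), adrenal (1 of 4) and blood markers (1 of 3) were mostly lower in ICD kidneys, and their scores also overlapped between the groups except that of the adrenal list, at -0.12 to 0.0038 in ICD and 0.019 to 0.057 in WT. In the adrenal list the groups overlapped for each of the 4 genes taken singly. Cyp11b1 and Cyp11a1 of that list were dim, below the median of all probe sets. Also dim in this sense were Acta1, Myh4, Tnnt3 and Mylpf of the skeletal muscle list. Elovl3 and Dio2 (brown fat), Lep (white fat) and Cd68 (immune) were dim too. The median of the blood markers was the value of Slc4a1, -0.20, and -0.12 without the array labelled WT 3. Slc4a1 is also in the intercalated cell list. Of the other blood markers, Hba-a1 was dim and differed by 0.0073, and Alas2 differed by -0.39. The part of cell composition in the Coq8a readings was not tested.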

How the data were processed

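Values were the authors' deposited log2 signals, 1 column per sample, made with RMA per the submitters' processing notes; the version and the chip definition are not given in the sources used here. RMA forces arrays to 1 distribution and compresses dim signals. The table had 45101 rows, of which 64 control rows were left out of the fit. Platform annotation gave 1 gene for 34945 probe sets, several for 932 and none for 9160. Symbols were checked by Entrez identifier in RefSeq (GRCm38.p6); 34741 matched and 0 changed. A gene was represented by its probe set with the highest mean over the 6 arrays.

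Genotype was the only term of a limma fit (version 3.58.1, R 4.3.3, with lmFit and eBayes, 2-sided, Benjamini-Hochberg over 45037 probe sets). The fit was first checked on simulated data with differences larger than that of any member, so smaller differences were not covered. Members and lists were chosen with earlier results of these data known. Named genes were all members, Coq8b, Coq10a, Coq10b, the highest and lowest gene of each list, Lrp2 and the 5 genes most like Coq8a on each of 2 correlation measures, and 1 gene that is not reported here; other genes or probe sets were named after their values were seen. Replicates are separate animals, per the labels, and 3 per group limit the precision. No array pair held identical values. The sources used here give no scan date or slide.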

Additional observations from a re-analysis of the deposited data

How the results depend on the processing

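Alternatives were leaving out each array, a replicate block, repeated quantile normalization, median centring, a trended and robust prior, array weights, bright probe sets alone, the mean over each gene's probe sets, and the ratio of linear means. Across them the Coq8a difference stayed between -0.74 and -0.49, and it was -0.49 with the mean of its probe sets. The median of the 9 genes was -0.046 with that mean and -0.026 with linear means, and it ran from -0.052 (without ICD 2) to 0.0064 (without ICD 3) with 1 array left out. Deviations of same-numbered ICD and WT arrays correlated at -0.0057, 0.0077 and -0.047, and no array correlated best with its own number. These values gave no sign that the numbers pair the animals, but 3 arrays per group cannot exclude it. The trended and robust prior, the restriction to bright probe sets and, in this balanced design, the replicate block cannot move the Coq8a difference of -0.64. With the replicate block 0 probe sets passed. The interval of Coq4 was then -0.43 to -0.017, in place of -0.49 to 0.052. That of the dim Coq8a probe set was -0.72 to 0.037, in place of -0.67 to -0.018. The count of probe sets past the threshold was 1 with the trended and robust prior, and 0 to 1 with an array left out, and no member was among them. With the mean of a gene's probe sets the sign turned for Pdss2, at -0.10 in place of 0.038, and for Coq9, at 0.026 in place of -0.015. The small differences of the other members, the dim probe sets and 3 animals per group limit what can be said.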
